A study of Homo sapiens with 6 samples.

Results

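The genes described are 49 interferon-stimulated genes, transcripts that cells make in response to interferons, chosen by gene symbol from the deposited count table, with earlier results of these data known. All 49 were found among the table's 19009 genes, and each had a count in at least 1 library, so all 49 entered the tests. They were grouped by family or role into the OAS, IFIT, MX, IFITM, IFI, GBP, PARP, STAT and SAMD9 groups, the ISG15 system, nuclear body and TRIM proteins, chemokines and other effectors.

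The cells were RCC10, an established human line of clear cell renal carcinoma that lacks working VHL, the part of a ubiquitin ligase that marks HIF-1alpha and HIF-2alpha for degradation when oxygen is present. Each group had 2 libraries of poly(A)-selected RNA: the parental cells, cells with a double knockout of HIF-1alpha and HIF-2alpha (guide RNAs given by lentivirus, then puromycin), and cells given VHL back by lentivirus. All were cultured in DMEM with 10% fetal bovine serum, and the labels name no interferon or virus other than the lentiviral vectors. The labels name no non-targeting guide or empty vector, so an effect of the virus or of selection cannot be told apart from that of HIF loss or of VHL. The sources used here do not state whether the knockout was a clone or a pool, nor whether replicate libraries came from separate cultures. The p-values therefore measure only how far these libraries vary among themselves, and that variation may be technical.

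Type I interferons bind the receptor pair IFNAR1 and IFNAR2, whose kinases TYK2 and JAK1 phosphorylate STAT proteins, among them STAT2. These join IRF9 to form the factor ISGF3, which binds interferon-stimulated response elements in the promoters of antiviral genes, whereas interferon gamma acts through gamma-activated sites. Many of these genes keep a low level of transcription without added interferon, and sensors of foreign or misplaced nucleic acids such as RIG-I, cGAS and TLR3 can switch them on by inducing interferon.

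Total counts were 22248126 to 29929116 per library, and 3 counts, the most that a count of 0 allows, corresponded to 0.101 to 0.132 CPM (counts divided by TMM-scaled library size, times 1e6). EPAS1, the gene of HIF-2alpha, was at 352 and 349 CPM in parental and 44.4 and 48.0 CPM in double-knockout libraries, and HIF1A was at 69.5 and 72.9 and 29.6 and 31.6 CPM, so both targeted transcripts were lower but still present. With VHL, EPAS1 was at 363 and 369 CPM and HIF1A at 304 and 286 CPM. VHL was at 38.8 and 39.5 CPM in parental and 652 and 723 CPM in VHL-restored libraries, which matches that label. Of 8 renal carcinoma markers, the epithelial genes PAX8, KRT8 and KRT18 were at least 296.7 CPM in every library and VIM, CDH2 and NNMT at least 86.5 CPM. PAX2 was at 1.48 and 1.85 CPM in parental libraries, 15.9 and 14.8 after HIF knockout (9.21-fold higher, adjusted p = 5.4e-18) and 0.858 and 1.36 with VHL, and CA9, a marker of clear cell carcinoma, had 1 count in all 6 together. Of 10 leukocyte markers, 7 had counts and summed to between 61.7 and 66.3 CPM in parental libraries, 24.7 and 27.3 after HIF knockout, and 25.7 and 28.6 with VHL, most of it CD68 (at least 20.9 CPM in every library). Against that sum, ITGAM rose 4.08-fold and FCER1G 3.03-fold after HIF knockout (adjusted p = 7.3e-07 and 3.1e-04) and CSF1R 3.45-fold with VHL (4.2e-04), each at 3.04 CPM or less, and the defining markers PTPRC and CD3E had no count. Of 5 endothelial markers, 2 had counts, with sums of 0.239 to 0.617 CPM in parental and double-knockout libraries and 1.72 and 1.86 CPM with VHL, and PECAM1 and KDR had none. Of 5 fibroblast markers, 4 had counts, and they summed to 17.4 CPM in both parental libraries, 3.69 and 3.76 CPM after HIF knockout and 22.8 and 24.4 CPM with VHL, from COL1A1 and PDGFRB, whereas DCN had 2 counts in all. What part those markers had in the results was not tested, and in bulk RNA fewer cells of a kind and less RNA per cell cannot be told apart.

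Most of the interferon-stimulated genes were lowest in parental cells and highest in VHL-restored cells. In VHL-restored against parental cells 42 of the 49 rose, 2 fell and 5 did not pass the test, where 26.5% of all genes tested rose, 27.7% fell and 54.2% changed in either direction. In double-knockout against parental cells 30 rose, 7 fell and 12 did not pass, where 26.6% of all genes rose, 27.5% fell and 54.1% changed. Counts within a family or class below are to be read against these shares. Families are small, and none was tested as a set. A gene is called here when its adjusted p was at or under 0.05 (edgeR's quasi-likelihood test, Benjamini-Hochberg over the 18273 genes tested), and all adjusted p-values below are of this kind. The median log2 fold change of the 49 was 1.53 in VHL-restored and 0.46 in double-knockout cells, and that of all genes was 0 in both. With genes that had no count in a group set at their bound, the medians were 1.52 and 0.46. The counts of all 49 genes summed to 2150 and 2123 CPM in the parental libraries, to 2592 and 2584 CPM after HIF knockout, and to 3903 and 4167 CPM with VHL. Both double-knockout libraries lay above both parental ones for 6492 and below for 6598 of all 18273 genes, and for 32 and 8 of the 49. With VHL these numbers were 6564 and 6621, and 45 and 3. Groups that do not overlap were thus common among all genes, and lack of overlap is given below only as description.

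Both comparisons use the same parental libraries, so the direct comparison of double-knockout with VHL-restored cells tests how the lines differ. It called 36 of the 49 lower and 3 higher in double-knockout cells and left 10 uncalled, where 28.0% of all genes were lower, 28.0% higher and 56.0% called in either direction. Counts between the lines below are to be read against these shares. The median log2 difference was -1.02, or -0.98 with bounds. The mean level was highest in VHL-restored cells for 43 genes, in double-knockout cells for 3 (IFI6, IFIT5 and GBP3) and in parental cells for 3 (GBP2, XAF1 and LGALS3BP). It was lowest in parental cells for 36 genes, in double-knockout cells for 11 and in VHL-restored cells for 1. CXCL11 had no count in parental and double-knockout libraries alike. How often each group was highest or lowest over all genes was not counted.

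**Figure D1:**
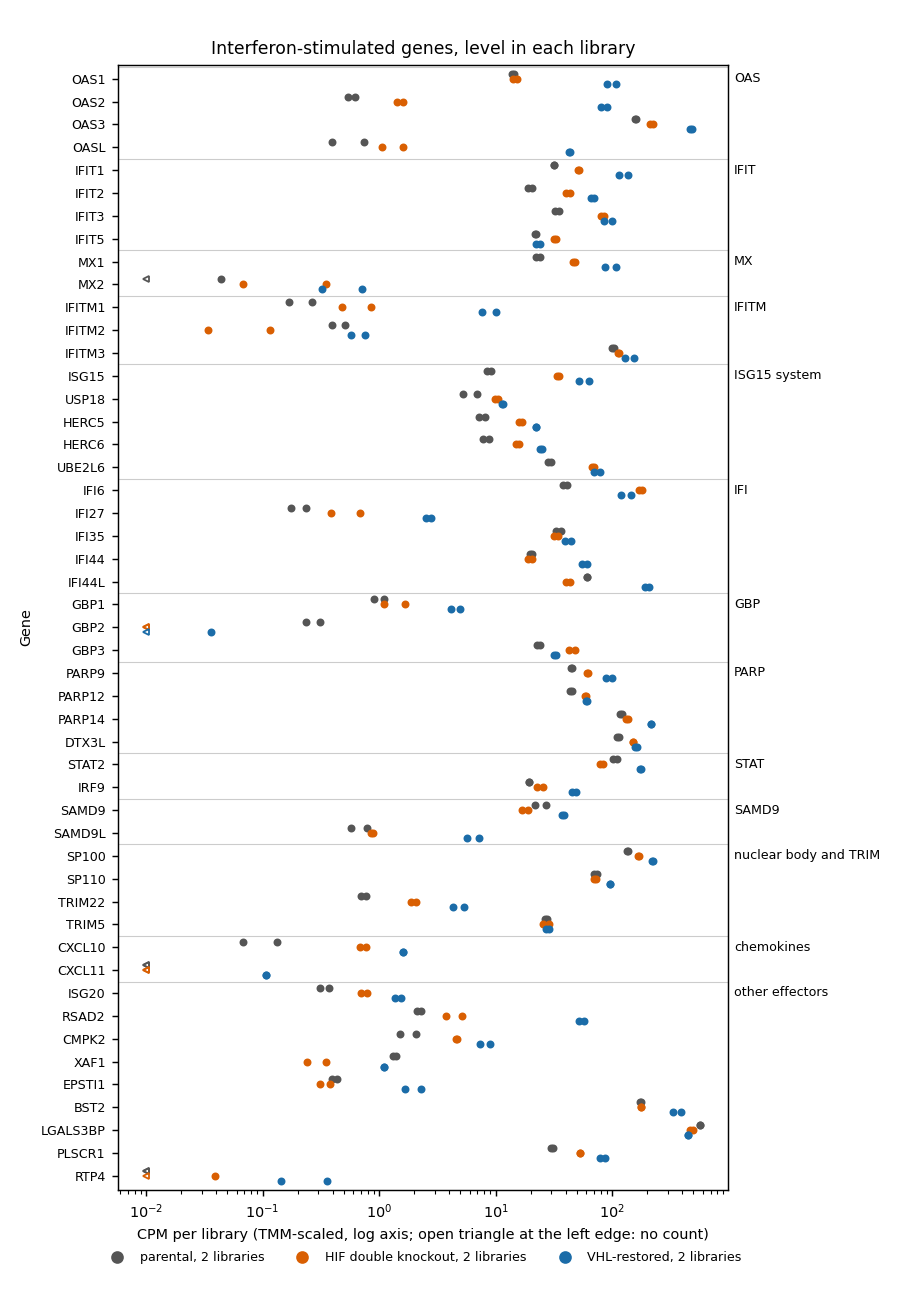
Level of each of the 49 interferon-stimulated genes in each of the 6 libraries, in CPM on a log axis, grouped by family; each point is 1 library and an open triangle at the left edge marks a library with no count. Parental libraries (grey) sit left of VHL-restored libraries (blue) for most genes, and the double-knockout libraries (orange) sit between them for OAS2, OAS3, IFIT1, MX1 and ISG15.

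The genes fell into 9 combinations of calls. How often all genes tested showed each combination was not counted, so none is called unusual here. For 21 of the 49, ISG15, IFIT1, IFIT2, MX1, OAS2, OAS3 and RSAD2 among them, both engineered lines were above parental cells and VHL-restored cells were above double-knockout cells. Another 10, including OAS1, IFI44, SAMD9L and BST2, rose in VHL-restored cells and were not called in double-knockout cells, and the lines differed. A further 6 (IFIT3, MX2, USP18, UBE2L6, PARP12 and DTX3L) rose in both lines with no called difference between them, and 3 (IFI44L, STAT2 and SAMD9) fell in double-knockout and rose in VHL-restored cells. IFI6 and GBP3 rose in both lines and further in double-knockout cells, and IFIT5 rose in double-knockout cells, was not called with VHL, and differed between the lines. IFITM2 and XAF1 fell in double-knockout cells and were below VHL-restored cells, GBP2 and LGALS3BP fell in both lines, and TRIM5 and CXCL11 were called in none of the comparisons.

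**Figure D2:**
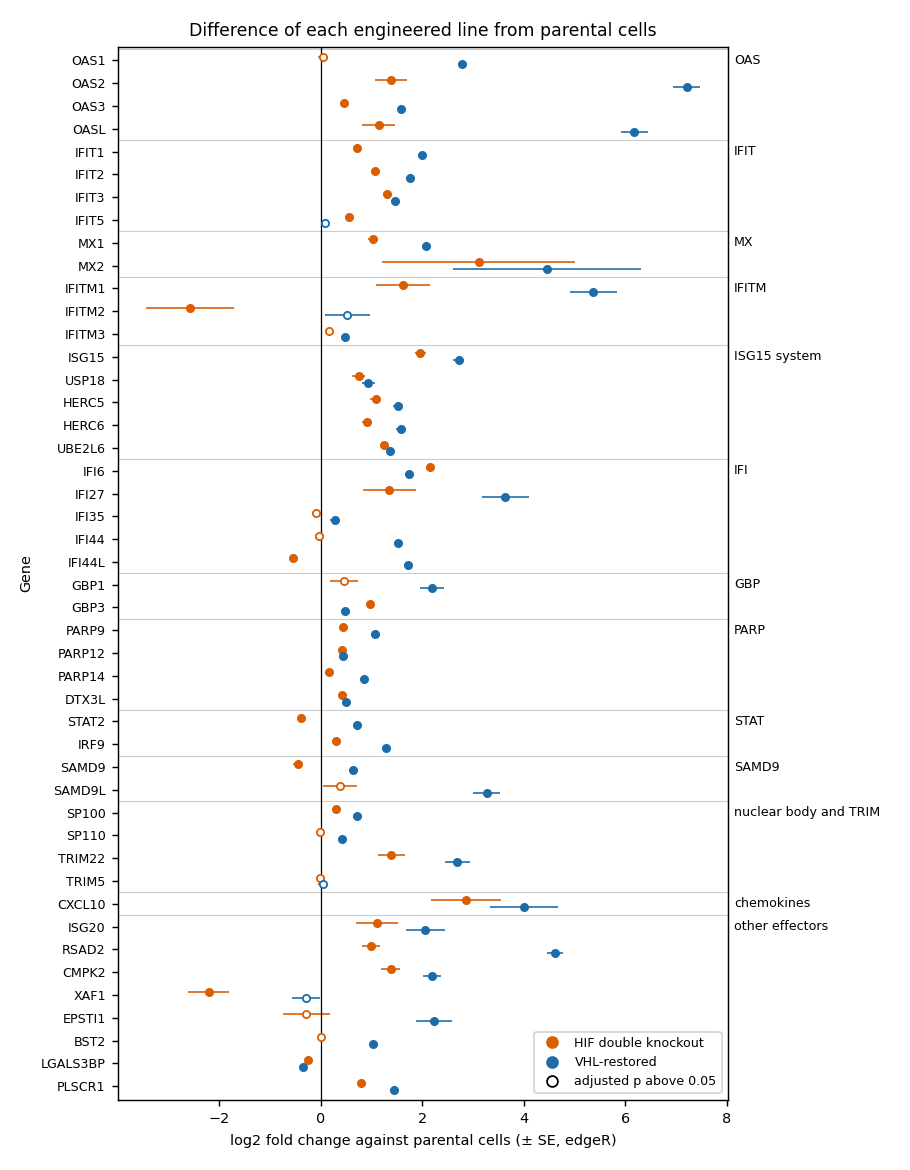
Log2 fold change of each gene against parental cells (± SE from the edgeR fit) in double-knockout (orange) and VHL-restored cells (blue); open circles did not pass an adjusted p of 0.05. GBP2, CXCL11 and RTP4 are left out because groups with no count give no SE. OAS2 and OASL lie farthest right in VHL-restored cells, and IFI44L, STAT2 and SAMD9 lie left of 0 in double-knockout and right of it in VHL-restored cells.

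Start regions were searched for motifs. The choice by symbol did not use sequence, but ISGF3 binds the response element at antiviral genes, the kind listed here. A high share of that element was therefore built into the list and is no independent result. RefSeq start windows (GRCh38.p14, 250 bases before to 50 after a gene's start) were found for 41 of the 49 genes; those of IFIT2, OAS2, OASL, MX2, IFITM2, USP18, TRIM22 and GBP2 were not matched. The core of the interferon-stimulated response element, GAAA, any 2 bases, then GAAA on either strand, was in the windows of 29 of the 41 genes (70.7%), against 4.38% of 27305 genes and 3.57% of 35116 windows of the same length in all. The gamma-activated site TTCNNNGAA was in 13 of the 41 (31.7%), against 9.38% of all genes and 7.66% of all windows. The HIF-binding core ACGTG was in 10 (24.4%), against 24.9% of all genes and 21.4% of all windows. The 3 motifs were searched on both strands and may overlap each other. Of the 29 genes with a response element, 26 rose and 1 fell in VHL-restored and 19 rose and 3 fell in double-knockout cells. Of the 12 without one, 10 and 0, and 5 and 2, did so. Of all genes tested, 26.5% rose and 27.7% fell in VHL-restored cells, and 26.6% and 27.5% in double-knockout cells. Calls of all genes with the element were not counted, and whether the element went with the calls was not tested. Windows of 6 genes are shown as examples, and they do not cover every combination of calls. ISG15, IFIT1 and RSAD2 rose in both lines and were higher in VHL-restored than in double-knockout cells. IFI44L and SAMD9 fell in double-knockout and rose in VHL-restored cells, and LGALS3BP fell in both. Genes that rose only with VHL, such as OAS1 and BST2, and genes that rose alike in both lines, such as IFIT3, are not shown. Capitals mark the response element on the strand that carries it, TTTC, any 2 bases, TTTC being its reverse complement, and positions count from the gene's RefSeq start on the gene's strand.
ISG15, chr1:1013374-1013403, plus strand, bases -123 to -94: catgcctcggGAAAGGGAAACCGAAActga
IFIT1, chr10:89392497-89392526, plus strand, bases -126 to -97: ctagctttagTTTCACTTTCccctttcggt
RSAD2, chr2:6877622-6877651, plus strand, bases -155 to -126: ctgtttcaacTTTCAGTTTCacatgtggaa
IFI44L, chr1:78620249-78620328, plus strand, bases -199 to -120: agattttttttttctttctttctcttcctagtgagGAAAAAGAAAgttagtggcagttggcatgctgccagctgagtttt
SAMD9, chr7:93118071-93118150, minus strand, bases -171 to -92: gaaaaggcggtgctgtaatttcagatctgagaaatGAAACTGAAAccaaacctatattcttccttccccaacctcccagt
LGALS3BP, chr17:78979962-78979991, minus strand, bases -68 to -39: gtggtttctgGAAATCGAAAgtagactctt
The ISG15 stretch holds 2 overlapping elements in full and the others 1 each. The IFIT1 stretch ends inside another element, which starts at base -103 and is left in lower case. All stretches lie upstream of the RefSeq start. The LGALS3BP stretch overlaps an exon of LGALS3BP in GENCODE v29, while the other 5 overlap no exon there. A match is a description of these letters and does not show binding.

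**Figure D3:**
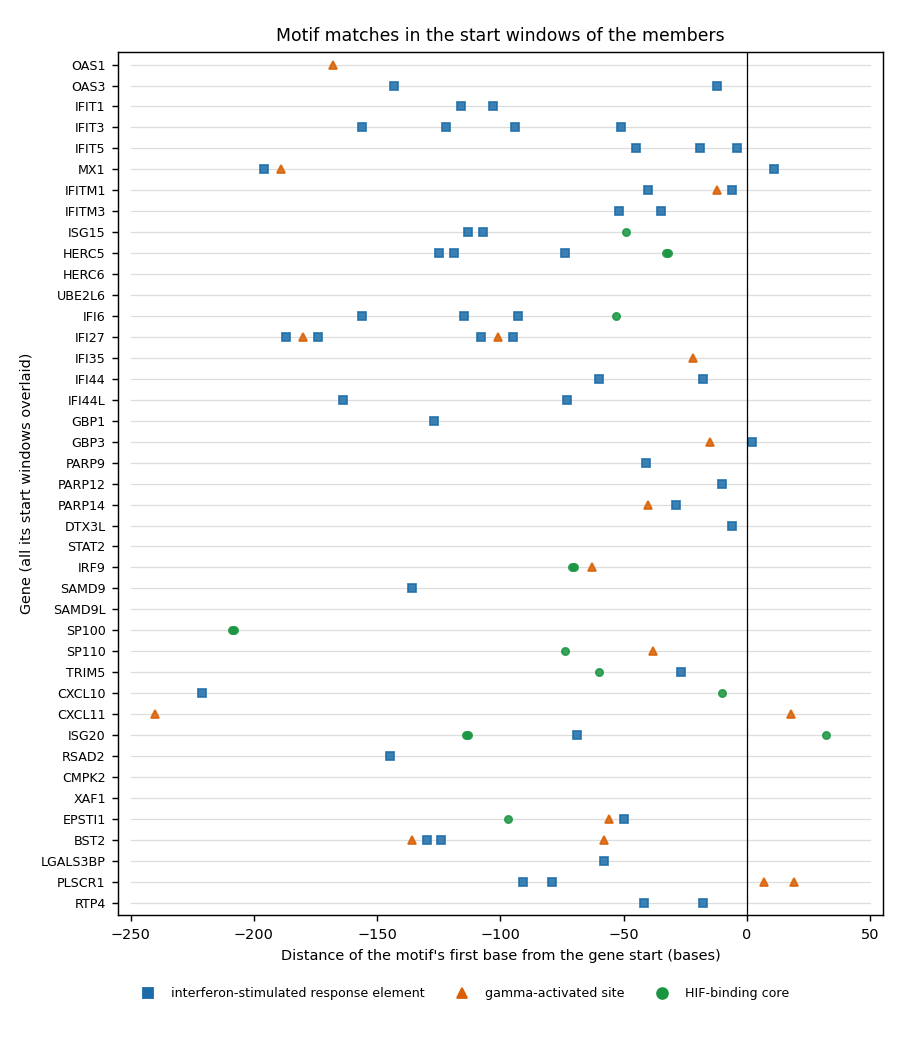
Position of each motif match relative to the gene's start (x axis, bases from the start; 0 is the start) in the windows of the 41 genes matched; squares are response elements, triangles gamma-activated sites and circles HIF-binding cores. Response elements lie mostly upstream of the start, with up to 4 in IFIT3, and 12 genes have none.

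The STAT group holds STAT2 and IRF9, parts of ISGF3. STAT2 was at 109 and 101 CPM in parental libraries, 83.1 and 79.1 after HIF knockout and 173 and 176 with VHL. All 3 groups were apart, with double-knockout cells lowest: STAT2 fell 1.30-fold there (log2 fold change -0.38 ± 0.064 (SE), adjusted p = 6.7e-06) and rose 1.66-fold in VHL-restored cells (0.73 ± 0.063, 1.6e-11). IRF9, the DNA-binding part of the complex, was at 19.3 and 19.4, 25.4 and 22.5 and 45.0 and 49.5 CPM in the same order. It rose 2.44-fold in VHL-restored cells (1.29 ± 0.084, adjusted p = 2.0e-14) and 1.24-fold in double-knockout cells (0.31 ± 0.089, 0.0036). The smaller rise was lost when parental library 1, parental library 2 or double-knockout library 1 was left out (adjusted p = 0.0809, 0.0622 and 0.101). Between the lines STAT2 was 2.15-fold and IRF9 1.98-fold higher in VHL-restored cells (adjusted p = 9.5e-16 and 5.5e-12).

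The OAS group held OAS2 and OASL, the genes with the largest fitted log2 fold changes of the 49 in VHL-restored cells. OAS1, OAS2 and OAS3 are oligoadenylate synthetases, which on binding double-stranded RNA make the messenger that activates RNase L, and OASL is a relative without that activity. All 4 rose in VHL-restored cells (median log2 fold change 4.49) and 3 of 4 rose in double-knockout cells (median 0.80). All 4 were higher in VHL-restored than in double-knockout cells. Of all genes, 26.5% rose in VHL-restored and 26.6% in double-knockout cells, and 28.0% were lower in double-knockout than in VHL-restored cells. OAS2 was at 0.539 and 0.617 CPM in parental libraries, 1.44 and 1.59 after HIF knockout and 80.2 and 90.7 with VHL. The 3 groups did not overlap, with a rise of 148-fold (7.21 ± 0.27, adjusted p = 9.6e-28), and one of 2.62-fold in double-knockout cells (1.39 ± 0.31, 1.4e-04). OASL was at 0.741 and 0.397, 1.06 and 1.59 and 42.9 and 43.6 CPM, a rise of 76.0-fold with VHL (6.18 ± 0.27, 1.2e-24). Its 2.33-fold rise in double-knockout cells (adjusted p = 0.00208) was lost without parental library 2 (0.0918) or without double-knockout library 2 (0.087). OAS1 was at 14.5 and 13.9 CPM in parental and 15.1 and 14.3 in double-knockout libraries, which overlap, and at 89.7 and 107 CPM in VHL-restored libraries. Its log2 fold change was 2.79 ± 0.091 with VHL (adjusted p = 2.4e-22) and 0.048 ± 0.10 after HIF knockout (adjusted p = 0.737). OAS3, already well expressed at 161 and 156 CPM in parental libraries, was at 222 and 213 and 487 and 466 CPM in the others, and rose 1.37-fold and 3.01-fold (adjusted p = 4.4e-08 and 9.8e-21).

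In the IFIT group, whose proteins bind foreign RNA by its unusual ends, all 4 genes rose in double-knockout cells (median log2 fold change 0.89). In VHL-restored cells 3 of 4 rose (median 1.62). Of all genes, 26.6% rose in the first and 26.5% in the second. IFIT1 was at 31.4 and 31.5 CPM in parental libraries, 50.9 and 52.2 after HIF knockout and 114 and 136 with VHL, a stepwise order with no overlap. It rose 1.64-fold and 3.97-fold (adjusted p = 6.0e-09 and 6.7e-20), and the lines differed by 2.43-fold (1.5e-15). IFIT2 kept the same order, at 19.2 and 20.5, 40.1 and 43.3 and 65.4 and 69.5 CPM. IFIT3, which stabilises IFIT1 in their shared complex, was at 32.7 and 34.9 CPM in parental libraries, and its double-knockout (85.7 and 80.9) and VHL-restored libraries (85.5 and 101) overlapped. Both rises passed (2.47-fold and 2.76-fold, adjusted p = 2.9e-15 and 1.8e-16), and the difference between the lines was -0.16 ± 0.073 on the log2 scale with adjusted p = 0.0654. That difference passed when VHL-restored library 1 was left out (adjusted p = 0.00163), with a filter on low counts (0.0274) and with 2 other settings. IFIT5 was the member of the family that ran the other way between the lines. It was at 22.2 and 21.7 CPM in parental libraries, 31.8 and 32.8 after HIF knockout and 22.4 and 24.1 with VHL, rose 1.47-fold after HIF knockout (adjusted p = 5.9e-07), and its log2 fold change with VHL was 0.086 ± 0.084 (0.427). The test between the lines gave 1.39-fold more IFIT5 in double-knockout cells (adjusted p = 6.8e-06).

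MX1 and MX2 encode dynamin-like GTPases that block incoming viruses. MX1 was at 22.4 and 23.9 CPM in parental libraries, 48.2 and 46.1 after HIF knockout and 87.7 and 108 with VHL. The groups did not overlap, and MX1 rose 2.04-fold and 4.22-fold (adjusted p = 1.5e-11 and 2.4e-19). MX2 had 0 and 1 count in parental libraries against 2 and 9 after HIF knockout and 9 and 20 with VHL. The ratios to parental cells were 10.5 (95% counting interval 1.52 to 451) and 27.1 (4.50 to 1108), intervals that cover counting error only, with adjusted p = 0.044 and 4.9e-04. The double-knockout call was lost without either parental library (adjusted p = 0.363 and 0.119), without double-knockout library 2 (0.527) and with DESeq2 (0.0817). Its log2 fold change of 3.11 was 2.08 and 5.53 without parental library 1 or 2, and 3.90 and 1.62 without double-knockout library 1 or 2, and 2.43 with limma-voom. The VHL call was lost without parental library 1 (0.0767), and its log2 fold change of 4.46 was 3.43 and 6.88 without parental library 1 or 2 and 3.78 without VHL-restored library 2. MX2 was not called between the lines (log2 difference -1.35, adjusted p = 0.0717), but was without double-knockout library 2 (-2.84, 0.0363), without VHL-restored library 1 (-1.81, 0.0172) and with limma-voom (0.0327).

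The IFITM proteins stop enveloped viruses from fusing with cell membranes, and their genes are neighbours of similar sequence. The treatment of shared reads, not given in the sources used here, could therefore move counts between these genes. IFITM3 was by far the most counted, at 104 and 100.4 CPM in parental libraries, 115 and 112 after HIF knockout and 130.3 and 153 with VHL. It rose 1.39-fold with VHL (0.47 ± 0.068, adjusted p = 5.2e-07), and after HIF knockout its log2 fold change was 0.16 ± 0.069 (0.0554), which passed in a fit of those 4 libraries alone (0.0197), without either VHL-restored library (0.0181 and 0.0187) and with 3 other settings. IFITM1 was at 0.168 and 0.265, 0.479 and 0.855 and 7.73 and 10.0 CPM, low in parental cells and clear of them in both lines. It rose 41.0-fold with VHL (adjusted p = 3.2e-17) and 3.08-fold after HIF knockout (0.00479), the second of which was lost without either parental library (0.194 and 0.065) or double-knockout library 2 (0.17). IFITM2 moved the opposite way in double-knockout cells: it had 15 and 9 counts in parental libraries, 1 and 3 after HIF knockout and 16 and 21 with VHL, a 5.99-fold fall (adjusted p = 0.00236). The fall was lost without double-knockout library 1 (0.0546) and its log2 value of -2.58 became -3.58 without double-knockout library 2. IFITM2 was also 8.78-fold lower in double-knockout than in VHL-restored cells (log2 difference -3.11 ± 0.84, adjusted p = 1.1e-04), a difference of -2.46 and -4.10 without double-knockout library 1 or 2. Summed into 1 feature (IFITM_sum), the 3 genes gave log2 fold changes of 0.16 in double-knockout (adjusted p = 0.0572) and 0.56 in VHL-restored cells (2.8e-08), and -0.40 between them (6.9e-06).

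In the ISG15 system all 5 of its genes rose in double-knockout (median log2 fold change 1.08) and in VHL-restored cells (median 1.52). The shares of all genes that rose were 26.6% and 26.5%. ISG15 is a ubiquitin-like protein that UBE2L6 and the ligase HERC5 attach to other proteins and that USP18 removes, and HERC6 is a relative of HERC5. ISG15 itself was at 8.42 and 9.22 CPM in parental libraries, 35.2 and 33.4 after HIF knockout and 52.0 and 63.7 with VHL. It had the largest fold of the 5 in each line, 3.89-fold (1.97 ± 0.11, adjusted p = 1.0e-16) and 6.56-fold (2.72 ± 0.10, 1.1e-20). Its conjugating enzyme UBE2L6 was at 28.2 and 30.1, 67.4 and 70.3 and 70.6 and 78.6 CPM, with a log2 difference between the lines of -0.12 ± 0.071 (adjusted p = 0.173; 0.0418 without VHL-restored library 1). HERC5 was at 7.28 and 8.16, 15.8 and 16.8 and 22.0 and 22.0 CPM and HERC6 at 7.85 and 8.78, 16.0 and 15.1 and 24.2 and 25.3 CPM. Both rose in either line and were higher in VHL-restored than in double-knockout cells (adjusted p = 9.9e-05 and 1.2e-07). USP18, which also dampens signalling at the receptor, was at 5.22 and 6.92, 9.81 and 10.4 and 11.4 and 11.6 CPM, rises of 1.66-fold and 1.89-fold (adjusted p = 5.2e-06 and 8.7e-08), with a log2 difference of -0.19 ± 0.11 between the lines (0.167).

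The IFI genes were mixed in double-knockout cells, where 2 rose, 1 fell and 2 were not called, and 54.1% of all genes changed. All 5 rose in VHL-restored cells (median log2 fold change 1.72), where 26.5% of all genes rose. IFI6, a small membrane protein that restrains cell death, was at 41.4 and 37.6 CPM in parental libraries, 170.1 and 182 after HIF knockout and 119.6 and 146 with VHL. Double-knockout cells had the most: IFI6 rose 4.45-fold there (2.15 ± 0.079, adjusted p = 1.3e-20) and 3.36-fold with VHL (1.75 ± 0.08, 3.4e-18), and the lines differed by 1.32-fold (1.8e-05). IFI27, of the same protein family, was low at 0.236 and 0.176 CPM in parental and 0.684 and 0.388 CPM in double-knockout libraries and reached 2.79 and 2.54 CPM with VHL. That rise was 12.9-fold (adjusted p = 9.7e-11). The 2.60-fold rise in double-knockout cells (0.0176) was lost without either parental library (0.0845 and 0.122), without double-knockout library 1 (0.262) and with DESeq2 (0.0612). IFI44L and IFI44 are paralogs that lie next to each other. IFI44L was at 60.8 and 60.5 CPM in parental libraries, 40.0 and 43.4 after HIF knockout and 192 and 207 with VHL, so it fell 1.45-fold after HIF knockout (-0.54 ± 0.071, adjusted p = 8.0e-08) and rose 3.29-fold with VHL (1.72 ± 0.066, 4.1e-20). IFI44 was at 19.8 and 20.7 and 19.0 and 20.6 CPM in parental and double-knockout libraries, which overlap, and 55.1 and 61.5 CPM with VHL, a 2.88-fold rise (adjusted p = 1.7e-16). IFI35 was at 36.5 and 33.1, 31.5 and 34.4 and 39.6 and 44.7 CPM, and its 1.21-fold rise with VHL (adjusted p = 0.00469) was lost without parental library 2 (0.146) or VHL-restored library 2 (0.0916).

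The GBP genes encode guanylate-binding proteins, large GTPases that attack membranes around intracellular microbes and respond most to interferon gamma, and the 3 listed did 3 different things. GBP3 was at 23.9 and 22.5 CPM in parental libraries, 43.0 and 48.2 after HIF knockout and 31.9 and 33.0 with VHL. It was highest in double-knockout cells, rising 1.97-fold there and 1.40-fold with VHL (adjusted p = 6.2e-12 and 8.7e-06), with 1.40-fold between the lines (2.4e-06). GBP1 was at 0.910 and 1.10, 1.09 and 1.67 and 4.15 and 4.93 CPM. Only its VHL-restored libraries stood apart from all others, with a rise of 4.51-fold (2.19 ± 0.24, adjusted p = 2.4e-10), while its log2 fold change after HIF knockout was 0.46 ± 0.27 (0.167). GBP2 had 7 counts in each parental library, none in double-knockout libraries and 1 and 0 in VHL-restored libraries. That is at least 4.90-fold lower in double-knockout cells (3 counts over the group; adjusted p = 0.00369) and a ratio of 15.0 (95% counting interval 2.28 to 633) of parental to VHL-restored cells (0.0139). The second call was lost without parental library 1 (0.052), parental library 2 (0.075) or VHL-restored library 2 (0.112) and with DESeq2 (0.0943). Its fitted log2 fold change of -3.60 was -5.88 and -2.75 without VHL-restored library 1 or 2.

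All 4 genes of the PARP group rose in both lines, by small steps in double-knockout cells (median log2 fold change 0.42) and by more in VHL-restored cells (median 0.67). PARP9 and DTX3L form a complex of an ADP-ribosyltransferase and a ubiquitin ligase, and their genes face away from a shared start region, where their windows hold the same single response element. PARP9 was at 44.9 and 45.7 CPM in parental libraries, 62.3 and 60.4 after HIF knockout and 89.3 and 100.3 with VHL, rising 1.36-fold and 2.09-fold (adjusted p = 5.1e-06 and 4.8e-14). DTX3L was at 115 and 111, 151 and 153 and 164 and 157 CPM, rising 1.34-fold and 1.41-fold (adjusted p = 4.4e-07 and 2.1e-08). PARP9 differed between the lines (log2 -0.63 ± 0.07, adjusted p = 3.4e-09), and DTX3L had a difference of -0.077 ± 0.06 (0.301). PARP12, a mono-ADP-ribosyltransferase, was at 45.0 and 43.7, 60.3 and 58.6 and 60.0 and 61.1 CPM, with a log2 difference between the lines of -0.027 ± 0.069 (adjusted p = 0.773). PARP14 was at 118 and 122, 131 and 137 and 215 and 218 CPM, and rose 1.80-fold with VHL (adjusted p = 1.4e-13). Its 1.12-fold rise in double-knockout cells (0.0269) was lost without either parental library (0.19 and 0.08) or double-knockout library 2 (0.15).

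SAMD9 and SAMD9L are paralogous, adjacent genes whose proteins restrain viral and cellular translation. SAMD9 was at 22.0 and 27.2 CPM in parental libraries, 17.0 and 19.0 after HIF knockout and 39.0 and 37.4 with VHL. Like IFI44L and STAT2 it fell after HIF knockout (1.36-fold, -0.44 ± 0.10, adjusted p = 2.1e-04; 0.0596 without parental library 2) and rose with VHL (1.55-fold, 0.65 ± 0.089, 2.2e-07). SAMD9L was at 0.573 and 0.794, 0.855 and 0.893 and 5.72 and 7.25 CPM, with a 9.50-fold rise with VHL (3.27 ± 0.27, adjusted p = 2.4e-14) and a log2 fold change of 0.38 ± 0.33 after HIF knockout (0.352).

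Of the nuclear body and TRIM genes, 2 of 4 rose in double-knockout and 3 of 4 in VHL-restored cells, where 26.6% and 26.5% of all genes rose. TRIM22, a ubiquitin ligase that silences viral promoters, was at 0.775 and 0.706 CPM in parental libraries, 1.88 and 2.06 after HIF knockout and 4.29 and 5.40 with VHL. Its 3 groups were apart, with rises of 2.66-fold and 6.54-fold (adjusted p = 2.5e-05 and 2.9e-12). SP100, which organises PML nuclear bodies, was at 135 and 137, 166 and 169 and 219 and 227 CPM, rises of 1.23-fold and 1.64-fold (adjusted p = 5.4e-05 and 5.5e-12). Its relative SP110 overlapped between parental (74.6 and 69.6 CPM) and double-knockout libraries (72.2 and 70.6) and rose 1.34-fold to 96.7 and 95.9 CPM with VHL (adjusted p = 2.4e-06). TRIM5, which binds retroviral capsids, was at 27.6 and 26.4, 25.3 and 28.6 and 28.5 and 27.1 CPM. The 3 groups overlapped, and the log2 fold changes were -0.0072 ± 0.084 and 0.039 ± 0.083 (adjusted p = 0.987 and 0.729).

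CXCL10 and CXCL11, chemokines that attract T cells through CXCR3, had few counts. CXCL10 had 2 and 3 counts in parental libraries, 20 and 20 after HIF knockout and 45 and 45 with VHL, or 0.0674 and 0.132, 0.684 and 0.777 and 1.61 and 1.61 CPM. The groups did not overlap, and it rose 7.31-fold and 16.1-fold (adjusted p = 3.2e-05 and 4.4e-09). Its log2 difference between the lines (-1.14 ± 0.29, adjusted p = 9.1e-04) did not pass with DESeq2 (0.056). CXCL11 had 3 counts in each VHL-restored library and none elsewhere, at least 1.87-fold above parental cells (3 counts over the group; adjusted p = 0.0839) and above double-knockout cells (0.076), differences that limma-voom alone called (0.00294 and 0.00215).

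Of the 9 other effectors, 4 rose and 2 fell in double-knockout cells, and 7 rose and 1 fell in VHL-restored cells. Among all genes 26.6% rose and 27.5% fell in the first, and 26.5% and 27.7% in the second. RSAD2 encodes viperin, an enzyme that makes a chain-terminating nucleotide, and CMPK2, its neighbour, a mitochondrial nucleotide kinase. RSAD2 was at 2.29 and 2.12 CPM in parental libraries, 3.76 and 5.13 after HIF knockout and 51.8 and 56.9 with VHL. It rose 2.02-fold (0.99 ± 0.18, adjusted p = 1.6e-05) and 24.7-fold (4.61 ± 0.16, 3.0e-24), and the lines differed by 12.2-fold (8.3e-23). CMPK2 was at 1.52 and 2.07, 4.65 and 4.54 and 7.30 and 8.90 CPM and rose by less with VHL, 4.51-fold, than its neighbour, against 2.56-fold after HIF knockout (adjusted p = 6.8e-13 and 9.8e-08). These genes lie close together, and reads were counted with a strand setting not given in the sources used here.

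BST2, or tetherin, which holds budding virions at the cell surface, was at 178 and 172 CPM in parental and 176 and 178 in double-knockout libraries, which overlap, and at 331 and 388 CPM in VHL-restored libraries. It rose 2.05-fold with VHL (adjusted p = 8.3e-15), against a log2 fold change of 0.016 ± 0.065 after HIF knockout (0.877). PLSCR1, a phospholipid scramblase, was at 31.4 and 30.1, 53.1 and 53.4 and 79.2 and 87.5 CPM, rises of 1.73-fold and 2.71-fold (adjusted p = 1.6e-10 and 7.5e-17). ISG20, a ribonuclease, was at 0.371 and 0.309, 0.786 and 0.699 and 1.36 and 1.54 CPM and rose 4.26-fold with VHL (5.8e-06). Its 2.19-fold rise after HIF knockout (adjusted p = 0.0189) was lost without parental library 1, parental library 2 or double-knockout library 1 (0.0609, 0.0833 and 0.093) and with DESeq2 (0.104), as was its difference between the lines (0.00499, and 0.106 with DESeq2). EPSTI1 was at 0.438 and 0.397, 0.376 and 0.311 and 1.68 and 2.29 CPM and stood apart with VHL, 4.75-fold higher (adjusted p = 3.6e-07). RTP4, a chaperone of receptors, had no count in parental libraries, 0 and 1 after HIF knockout and 10 and 4 with VHL. It was at least 4.37-fold higher with VHL than in parental cells (3 counts over the group; adjusted p = 0.0064), a call lost without either parental library (0.075 and 0.0518) or VHL-restored library 1 (0.0995). Between the lines the ratio was 13.8 (95% counting interval 2.09 to 582; adjusted p = 0.0202), and it did not pass without double-knockout library 1 (0.163) or VHL-restored library 1 (0.253) or with DESeq2 (0.116). Its fitted log2 value of -3.48 was -2.55 and -5.81 without double-knockout library 1 or 2 and -2.69 without VHL-restored library 1.

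XAF1 and LGALS3BP fell in double-knockout cells and were highest in parental cells. XAF1, which promotes cell death by opposing the inhibitor XIAP, was at 1.31 and 1.41 CPM in parental libraries, 0.239 and 0.350 after HIF knockout and 1.11 and 1.11 with VHL. It fell 4.63-fold after HIF knockout (adjusted p = 3.8e-06), and its log2 fold change with VHL was -0.29 ± 0.27 (0.392). LGALS3BP, a secreted glycoprotein that binds galectins, was at 572 and 566, 494 and 463 and 449.9 and 445 CPM, and had the most counts of the 49 genes in parental and double-knockout libraries. It fell 1.19-fold and 1.27-fold (adjusted p = 2.3e-04 and 2.3e-06), and the log2 difference between the lines was 0.10 ± 0.055 (0.142). When libraries were centred on the median of all genes, a setting chosen after seeing the data that raises log2 fold changes of double-knockout against parental cells by a median of 0.12 over all genes, its fall in double-knockout cells did not pass (0.0615) and the difference between the lines did (0.0428). Without LGALS3BP the other 48 genes summed to 1578 and 1557 CPM in the parental libraries, 2098 and 2121 CPM after HIF knockout, and 3453 and 3721 CPM with VHL.

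Levels can be compared between genes only per length. Divided by the longest coding transcript of GENCODE v29, the highest mean levels in parental cells were 236 CPM per kilobase for LGALS3BP, 172 for BST2 and 126 for IFITM3. In double-knockout cells IFI6, at 209 CPM per kilobase, was above LGALS3BP at 199. In VHL-restored cells BST2 led with 353, ahead of LGALS3BP (186), IFITM3 (175) and IFI6 (158). OAS2, with the largest fold change, went from 0.122 to 18.1 CPM per kilobase and stayed well below those 4.

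**Figure D4:**
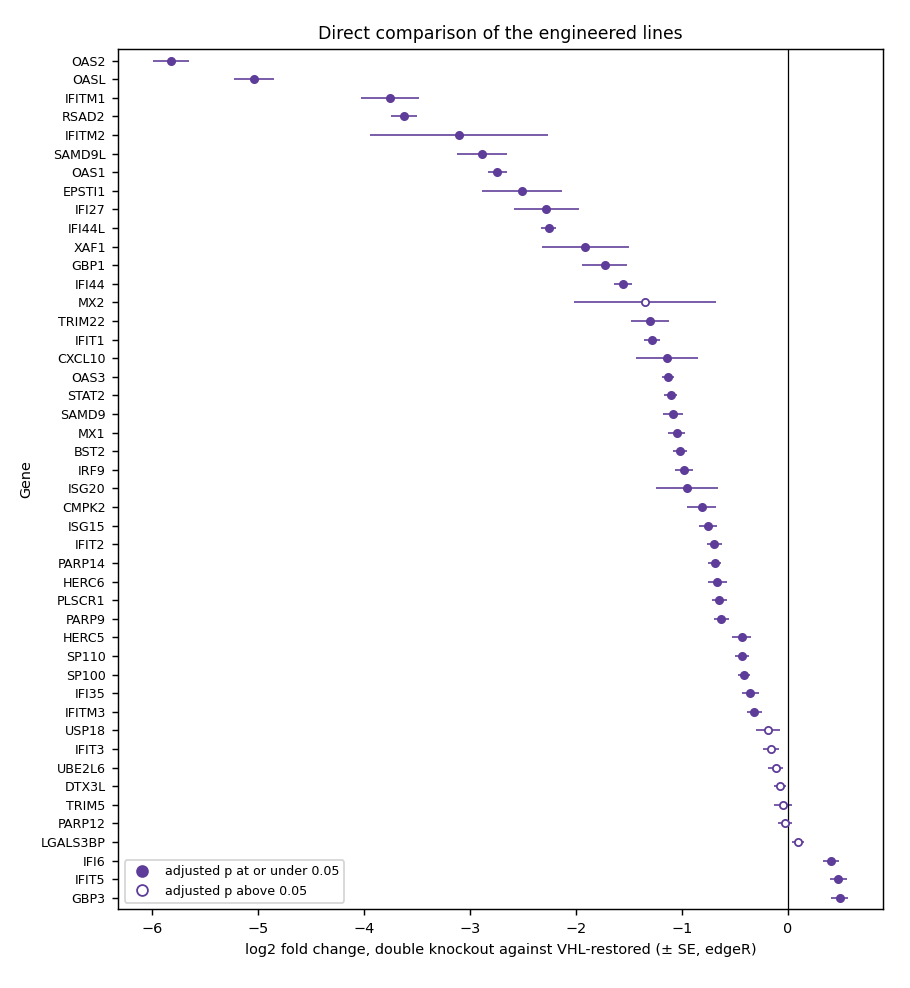
Log2 difference of double-knockout from VHL-restored cells (± SE from the edgeR fit), with genes in order of the difference; filled circles passed an adjusted p of 0.05, and GBP2, CXCL11 and RTP4 are left out because groups with no count give no SE. OAS2, OASL, IFITM1 and RSAD2 are at the lower end, and IFI6, IFIT5 and GBP3 are the 3 called above 0.

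The ordering of genes by the difference between the lines puts OAS2 (-5.82 ± 0.17), OASL (-5.04 ± 0.19), IFITM1 (-3.75 ± 0.27) and RSAD2 (-3.62 ± 0.12) at the low end, all much lower in double-knockout cells. IFITM2, SAMD9L, OAS1, EPSTI1, IFI27 and IFI44L follow, from -3.11 to -2.26. At the other end stand GBP3 (0.49 ± 0.078), IFIT5 (0.47 ± 0.081) and IFI6 (0.40 ± 0.073). Differences between one gene and the next in this order were not tested.

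Other genes of the pathway were read from a list of 51, of which 34 were matched to the table and 32 had counts. In VHL-restored against parental cells 19 of the 32 rose and 8 fell, where 26.5% and 27.7% of all genes did, and in double-knockout against parental cells 12 rose and 6 fell, where 26.6% and 27.5% did. The interferon transcripts that were matched to the table were at or near the detection limit. IFNB1 had 0 and 1, 1 and 0, and 0 and 3 counts in parental, double-knockout and VHL-restored libraries, IFNA5 had 3 counts in all, from parental libraries, and IFNL1 and IFNL2 had none. IFNE, an epithelial type I interferon, had 2 and 2, 1 and 3, and 16 and 18 counts, a 7.81-fold rise with VHL to 0.608 ± 0.0501 CPM (SD, n = 2; adjusted p = 5.2e-04). The remaining interferon genes of the list, IFNG among them, were not matched to the table, so their levels could not be read.

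Of the receptor transcripts, 4 of 5 fell in VHL-restored cells and none rose, where 27.7% of all genes fell and 26.5% rose. IFNAR1 was at 63.8 and 74.8 CPM in parental libraries, 56.0 and 56.4 after HIF knockout and 26.4 and 28.3 with VHL, 2.54-fold lower with VHL (-1.34 ± 0.081, adjusted p = 3.2e-15) and 1.23-fold lower after HIF knockout (0.00115). IFNAR2 (-0.86), IFNGR2 (-1.38) and IL10RB (-1.08) also fell on the log2 scale with VHL, and IFNGR1 had -0.13 ± 0.091 (adjusted p = 0.229). IFNGR2 fell after HIF knockout too (-0.23, adjusted p = 0.00631).

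Of 8 signalling genes, 6 rose and 1 fell in double-knockout cells and 7 rose and 1 fell in VHL-restored cells. The shares of all genes that rose were 26.6% and 26.5%, and of those that fell 27.5% and 27.7%. JAK1 fell 1.67-fold after HIF knockout, from 854 and 847 to 504 and 517 CPM, and 1.10-fold with VHL (adjusted p = 2.5e-13 and 0.0248). IRF1, a transcription factor that binds related promoter elements, rose 3.06-fold and 2.43-fold, from 16.2 and 14.7 CPM to 49.5 and 45.1 and 36.1 and 38.8 CPM (adjusted p = 1.2e-16 and 7.1e-14), and IRF7 rose 1.81-fold and 2.49-fold (1.8e-09 and 8.0e-14). IRF3, which sensors activate, rose too (log2 fold changes 0.90 and 1.14, adjusted p = 1.2e-12 and 4.8e-15). The kinase gene TYK2 rose by 0.36 and 0.27, STAT3 by 0.24 and 0.45, and IRF2 by 0.29 and 0.48 on the log2 scale, double knockout first. JAK2 rose 1.70-fold with VHL and was not called after HIF knockout (log2 0.19 ± 0.14, adjusted p = 0.262).

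Among inhibitors 3 of 5 rose and 1 fell in double-knockout cells and 4 of 5 rose in VHL-restored cells. Of all genes 26.6% rose and 27.5% fell in the first, and 26.5% rose in the second. SOCS3, which blocks JAK kinases, was highest in double-knockout libraries (33.6 and 33.1 CPM, against 10.3 and 10.7 in parental and 19.6 and 18.6 in VHL-restored libraries). SOCS1, of the same family, rose 2.06-fold and 4.07-fold, to 0.786 and 0.932 and 1.72 and 1.68 CPM from 0.438 and 0.397. The phosphatase gene PTPN2 rose 1.44-fold and 1.33-fold, while PTPN6 fell 1.31-fold after HIF knockout and rose 1.61-fold with VHL (adjusted p = 2.4e-04 and 6.5e-09). PIAS1 was not called in either.

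Among sensors and their adaptors and effectors 3 of 11 rose and 2 fell in double-knockout cells, shares near or under those of all genes given above, and 7 rose and 3 fell in VHL-restored cells. DDX58, the gene of the RNA sensor RIG-I, was at 30.4 and 29.2 CPM in parental libraries, 40.6 and 37.8 after HIF knockout and 120.2 and 132 with VHL, rises of 1.31-fold and 4.23-fold (adjusted p = 6.9e-05 and 5.0e-21). TLR3, the endosomal sensor of double-stranded RNA, went the other way, from 18.7 and 20.2 CPM in the parental libraries to 0.786 and 0.816 CPM after HIF knockout and 0.715 and 0.607 CPM with VHL, 24.3-fold and 29.4-fold lower (adjusted p = 1.3e-21 and 7.3e-22). STING1, the adaptor of cGAS, fell 1.94-fold with VHL, from 56.8 and 52.6 to 28.3 and 28.2 CPM (adjusted p = 2.0e-12). IFIH1, the gene of the RNA sensor MDA5, rose 1.42-fold and 1.83-fold and DHX58, of the same helicase family, 1.23-fold and 2.49-fold. MAVS, the adaptor of RIG-I and MDA5, fell 1.23-fold and 1.17-fold (adjusted p = 6.3e-05 and 0.00163). CGAS, the kinase gene TBK1, EIF2AK2 (the kinase PKR) and the RNA editor ADAR rose 1.24-, 1.19-, 1.25- and 1.29-fold with VHL and were not called after HIF knockout.

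**Figure D5:**
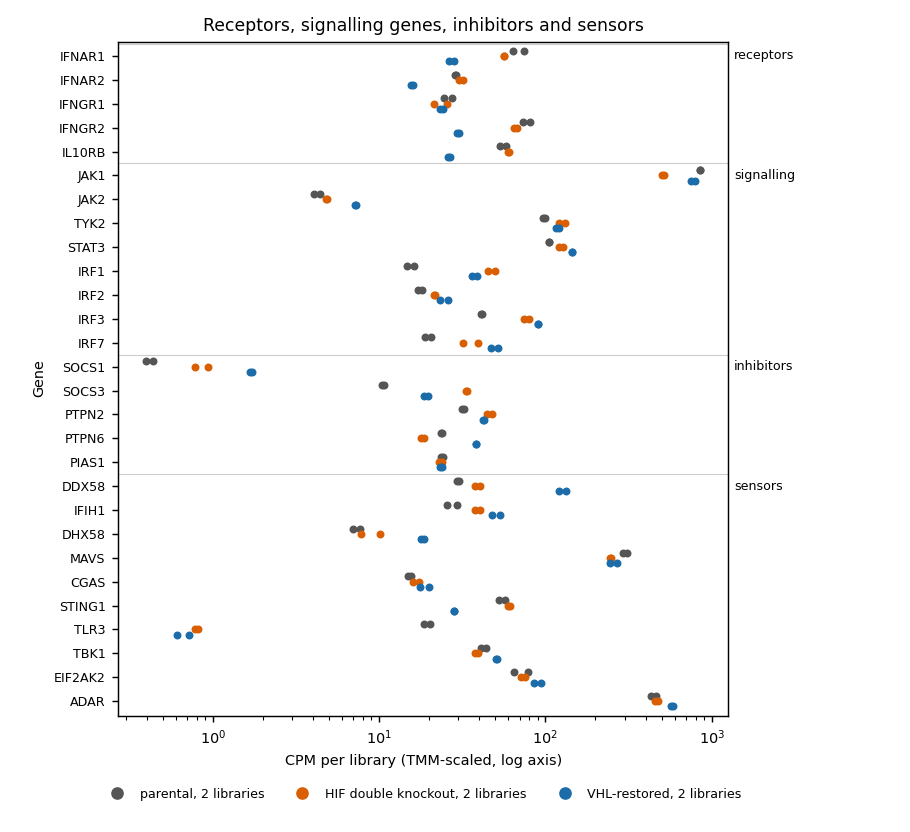
Level of receptors, signalling genes, inhibitors and sensors of the interferon pathway in each library, in CPM on a log axis; each point is 1 library, grey for parental, orange for double-knockout and blue for VHL-restored cells. IFNAR1, IFNAR2, IFNGR2 and IL10RB are lowest in VHL-restored libraries, DDX58 is highest there, and TLR3 is near or under 1 CPM in both engineered lines.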

How the data were processed

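The authors deposited 1 table of read counts per gene for the 6 libraries, with whole numbers for 19009 gene symbols. Its name calls the values normalized, but the totals differ between libraries, and they were taken as raw counts. The tools named by the submitters' processing notes are HISAT2 2.2.1, featureCounts 2.0.8, Trimmomatic 0.39, FastQC 0.74 and limma 3.58.1, with no order or settings. These notes list both hg19 and hg38, so the build behind the counts is unknown, no position is printed from the table, and the RefSeq windows are those of GRCh38.p14. The sources used here do not state the strand setting or the treatment of shared reads.

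From these counts, edgeR 4.0.16 in R 4.3.3 (TMM scaling, factors 0.977 to 1.02, quasi-likelihood fit of 3 group means over all 6 libraries, prior count 0.125) tested the 18273 genes that had 1 or more counts in any library, with Benjamini-Hochberg adjustment at 0.05. CPM uses the TMM library size, a fold is the ratio of mean CPM, and an SE is the Wald error of the same fit. For a group at 0 the fold is a bound against 3 counts over the group, and for 1 to 3 counts it has a 95% counting interval; both cover counting error only. The fit was tested on simulated data. Alternatives were DESeq2 1.42.0, limma-voom, other scalings, a filter on low counts, a fit of the 4 libraries compared, a replicate block, and each library left out. All 49 genes are named, grouped by role; other pathway genes are counted in full and named where they passed the test or a class lacked counts, except for 1 gene not reported here. The members, lists and motifs were chosen with earlier results of these data known.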

Additional observations from a re-analysis of the deposited data

How the results depend on the processing

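Every call of the 49 genes was recomputed under each alternative that tested the gene. There were 37 calls for double knockout against parental, 44 for VHL-restored against parental and 39 for double knockout against VHL-restored. Of these, 27, 40 and 36 passed under every alternative that tested the gene, and the others are named with their values in the report. An alternative that did not test a gene, such as the filter on low counts, was not held against its call. With that filter 6 genes instead of 7 were lower in double-knockout than in parental cells. With 1 library left out, 23 to 31 and 6 to 7 genes were higher and lower in double-knockout cells, 40 to 42 and 1 to 2 in VHL-restored cells, and 3 and 35 to 38 between the lines, and 7974 to 10134, 7891 to 9671 and 9019 to 9679 genes were called in all. In VHL-restored cells 1 gene instead of 2 was lower with DESeq2 and with a filter on low counts, because GBP2 was no longer called or not tested. With DESeq2 33 genes instead of 36 were lower between the lines. Directions reversed in log2 fold changes that were not called. In double-knockout against parental cells these were, with libraries centred on the median of all genes, IFI35 (0.040), IFI44 (0.093), SP110 (0.11) and TRIM5 (0.12). With 1 library left out they were BST2 (-0.0093 to 0.044 over these settings), IFI44 (-0.086 to 0.029, including 0.0025), SP110 (-0.063 to 0.039, including 0.00019) and TRIM5 (-0.097 to 0.081, including 0.029). Between the lines they were PARP12 (0.012, median centring) and TRIM5 (0.042 with double-knockout library 1 left out, in a range from -0.14). That centring, chosen after seeing the data, shifted log2 fold changes by medians of 0.12, 0.084 and 0.039 over all genes and gave 6005 higher and 4133 lower, 5571 and 4364, and 5472 and 4814 genes in the 3 comparisons. With the replicate number as a block, 31 genes were higher and 7 lower in double-knockout cells, 42 and 2 in VHL-restored cells, and 3 and 37 between the lines. The labels do not say that a number marks a shared culture or day. Same-numbered libraries deviated together weakly or not at all (correlations of 0.135, -0.00414 and 0.0240 between pairs of groups), which cannot decide whether they were paired. The block was therefore run only as an alternative. Depth limits MX2, GBP2, CXCL11, RTP4 and IFITM2, with 0 to 21 counts per library. It also limits folds of genes with few counts in 1 group. Among these were CXCL10 (2 and 3 counts in parental libraries), IFITM1 (5 and 6), IFI27 (7 and 4) and ISG20 (11 and 7).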

Other observations

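Neighbouring genes did not always move by like amounts. On chromosome 12, OAS1, OAS3 and OAS2 lie side by side, and their log2 fold changes in VHL-restored cells were 2.79, 1.59 and 7.21, against 0.048, 0.46 and 1.39 in double-knockout cells. On chromosome 10, IFIT1 and IFIT5 had 1.99 and 0.086 in VHL-restored cells and 0.71 and 0.56 in double-knockout cells, whereas IFIT2 and IFIT3 had 1.77 and 1.46, and 1.07 and 1.31. On chromosome 4, HERC6 and HERC5 were close in both lines, with 1.58 and 1.52, and 0.91 and 1.08. On chromosome 7, SAMD9 and SAMD9L had 0.65 and 3.27 with VHL. Differences between neighbours were not tested. The order of these genes is that of RefSeq protein-coding genes.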
